A study of Drosophila melanogaster with 42 samples.

Results

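The X chromosome of Drosophila melanogaster was examined in 7 lists of binding peaks mapped in intestinal stem cells (ISCs) of the adult gut. Every peak on X was taken and set against the peaks on the autosomal arms 2L, 3L and 3R. X held 4145 of the 22355 peaks in the series, and the 3 autosomal arms held 13324. Of the X peaks, 824 were from Kismet, 1012 from Trr, 1315 from RNA Pol II, 318 from Brm, 378 from Pc, 280 from HP1 and 18 from H1.

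The maps came from targeted DamID-seq, in which a bacterial Dam methylase fused to a chromatin protein marks GATC sites near the places where that protein binds. The fusions were Dam-Kis, Dam-Trr, Dam-RNA Pol II, Dam-Brm, Dam-Polycomb, Dam-HP1 and Dam-H1, each with 3 samples, and 11 samples expressed Dam alone as the reference. All flies carried esg-gal4ts with NREGal80, which directs expression to ISCs because esg is active in the progenitor cells of the gut and the Notch-responsive Gal80 silences the driver in enteroblasts. Crosses were kept at 18°C, and 3-day-old adults spent 1 day at 29°C before 60 guts were pooled for a sample. A peak is a run of neighboring GATC sites methylated more by the fusion than by Dam alone, and the peaks of a fusion were called once from all of its samples. The lists therefore hold 1 set of positions for each protein, with no value per sample, no peak height and no spread between replicates. The sources used here do not give the sex of these flies, which sets how many copies of X a gut cell carried. Kismet and RNA Pol II shared their 3 Dam-only samples, and a second set of 3 served for HP1, H1 and Brm, with 1 of them also used for Pc. RNA Pol II peaks lay in all 4 ISC marker genes looked up (Dl, esg, Sox21a and spdo), and also in pros but not Tk of the enteroendocrine markers and in both enterocyte markers, nub and Myo31DF.

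Drosophila males carry a single X and females a pair, and males raise transcription from their single X to make up for it. This dosage compensation is carried out by the MSL complex, which contains the acetyltransferase MOF and the roX RNAs and spreads over active X-linked genes, whereas Sxl blocks the complex in females. Of the proteins mapped here, Kismet is a CHD-family remodeler, Trr is a COMPASS-like methyltransferase of histone H3 lysine 4, Brm is the SWI/SNF ATPase, Pc reads the Polycomb mark on histone H3 lysine 27, HP1 reads methylated histone H3 lysine 9 in heterochromatin, and H1 is the linker histone. HP1 is best known for its place in the repeat-rich chromatin next to the centromeres.

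X measured 23.5 Mb, up to its last annotated gene or peak, and carried 2705 genes, whereas the 3 autosomal arms measured 83.7 Mb with 11216 genes. X had fewer genes per Mb, at 115 against 134 on the autosomal arms. Its genes were longer, with a median of 2063 bp against 1657.5 bp, and gene bodies made up 74.6% of X against 68.6% of the autosomal arms. Because a longer gene is more likely to touch a peak, shares of genes are given below for all genes and, in part, within classes of gene length.

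With 1 list per protein and 1 X, no test of the difference could be had. X is therefore said to lie above, within or below the range of the 3 autosomal arms, and intervals cover counting error only (exact Poisson for peaks per Mb and Wilson for shares of genes, both at 95%). The intervals are narrower than they should be, because adjacent genes and peaks do not vary independently. Lying outside the range of the other arms was common for every arm. On whole arms, 7 proteins and 4 measures (peaks per Mb, median length, genes held and coverage) gave 28 comparisons for each arm. X lay outside the range of the other 3 arms in 15 of 28 comparisons, 2L in 15, 3L in 16 and 3R in 10. X lay above in 11 of its 15, 2L in 7 of 15, 3L in 7 of 16 and 3R in 3 of 10. Without the 5 Mb nearest the centromere, X lay outside in 18 and 2L also in 18, with 3L in 12 and 3R in 8. Of these, X lay above in 16, 2L in 6, 3L in 3 and 3R in 3. The size of a departure, set against the spread of the autosomal arms, is thus more informative than its rank.

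HP1 away from the centromere showed the widest difference between X and the autosomal arms, with the 3 largest of 28 ratios over 7 proteins and 4 measures. Outside the 5 Mb nearest the centromere of each arm, X had 213 HP1 peaks in 18.5 Mb, or 11.5 peaks per Mb (interval from 9.998 to 13.1). The density was 4.54 on 2L, 4.46 on 3L and 2.70 on 3R, so X stood 3.04-fold above the pooled autosomal arms, while the highest of these was 1.68-fold above the lowest. HP1 peaks covered 0.950% of this stretch of X, against 0.297% of 2L, 0.490% of 3L and 0.157% of 3R. The coverage ratio of 3.10 was close to the spread among these arms, of which the highest was 3.12-fold above the lowest. They lay in 174 of the 2213 X genes there, which is 7.86% (6.81 to 9.06%), against 2.81% of genes on 2L, 2.17% on 3L and 1.66% on 3R. Over all 17684 genes of the 6 arms (2L, 2R, 3L, 3R, 4 and X), centromere-proximal genes included, 4.64% were held by an HP1 peak. A gene is called held by a protein when a peak overlapped its body by 1 bp or more.

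**Figure D1:**
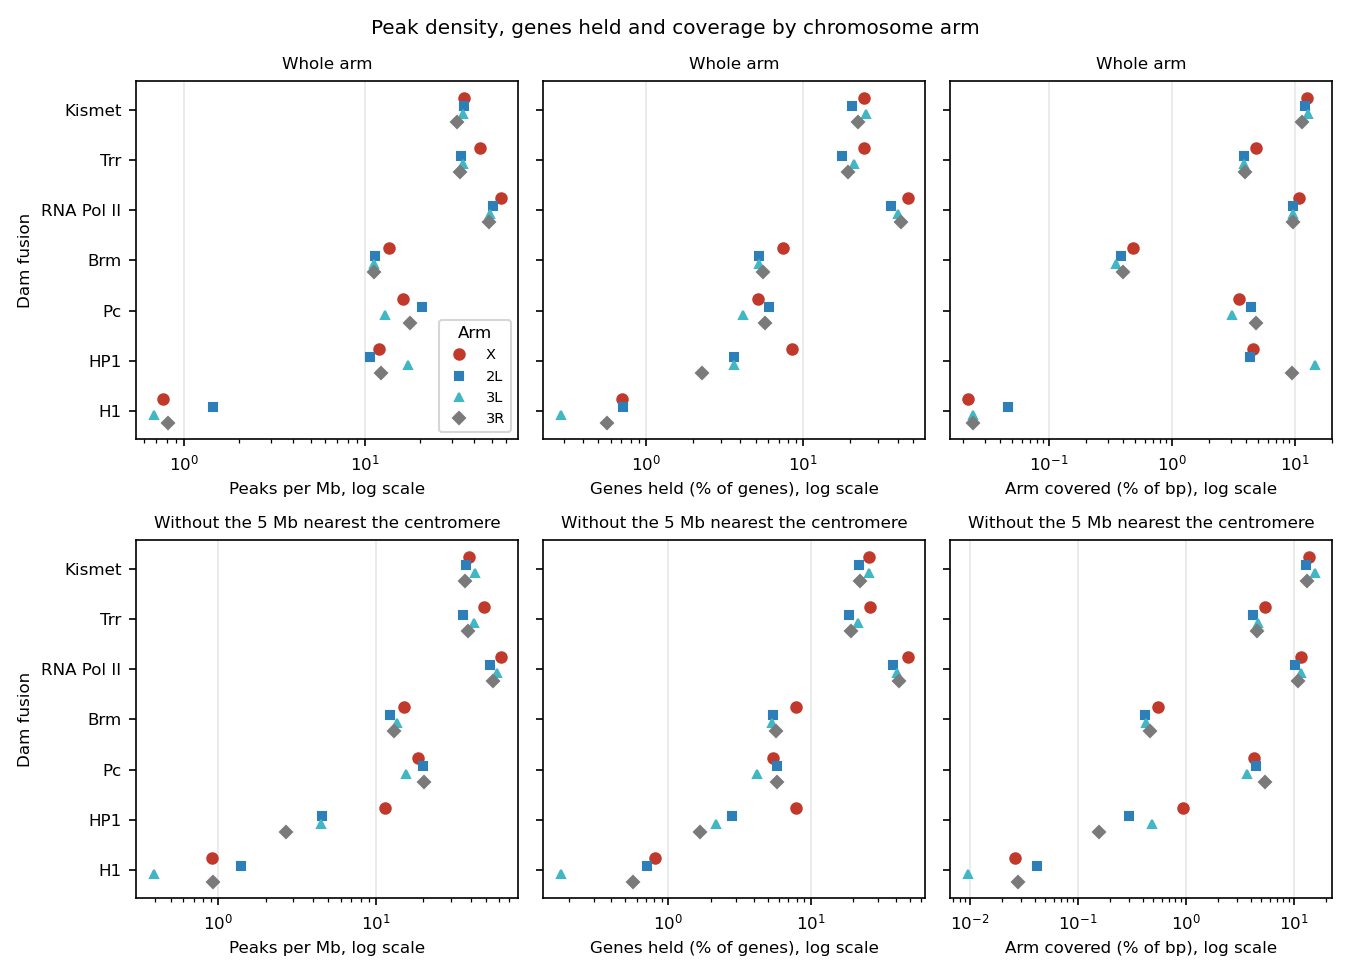
Peaks per Mb, genes held (% of all genes of the arm) and coverage (% of base pairs) of 7 Dam fusions on X, 2L, 3L and 3R, each on a log axis, for whole arms (top) and without the 5 Mb nearest the centromere (bottom); each point is 1 arm in 1 list. In the bottom row the HP1 point of X lies to the right of all 3 autosomal arms, at 11.5 peaks per Mb against 2.70 to 4.54.

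These X peaks were small and spread along the chromosome. Their median length was 570 bp, against medians of 427.5 to 524 bp on the autosomal arms. In windows of 1 Mb outside the centromere-proximal stretch, HP1 coverage of X had a median of 0.803% over 19 windows, against 0.157% over 69 autosomal windows. The lowest X window reached 0.166%, and none was without HP1, whereas 9 autosomal windows had no HP1 peak. All 19 X windows lay above the autosomal median, and 18 of 19 lay above the upper quartile of the autosomal windows (0.292%), which 17 of 69 autosomal windows exceeded. The highest X window, from 13 to 14 Mb, had 2.46% of its length in 28 HP1 peaks. The higher coverage thus extended over nearly all windows of the distal X.

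**Figure D2:**
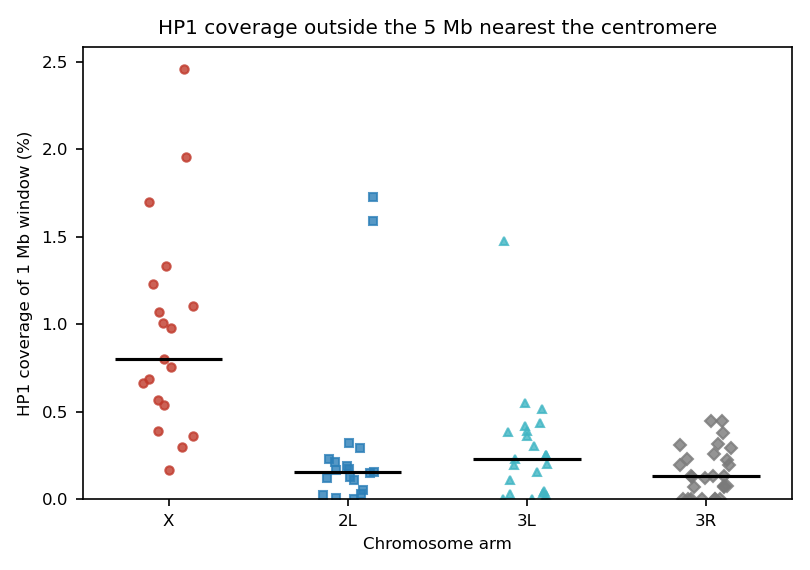
HP1 coverage (% of base pairs) of 1 Mb windows outside the 5 Mb nearest the centromere on X, 2L, 3L and 3R; each point is 1 window and each black bar the median of its arm, and points are spread sideways for legibility. The X windows run from 0.166 to 2.46% around a median of 0.803%, and most autosomal windows lie below 0.5%.

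The higher share of HP1-held genes was seen in every length class. On whole arms, HP1 held 23.5% of X genes longer than 10 kb against 9.55% of such autosomal genes, 6.002% against 3.18% of genes of 2 to 10 kb, and 5.88% against 1.89% of genes under 2 kb. In each class X lay above all 3 autosomal arms. It was also seen in genes with and without RNA Pol II. HP1 held 10.7% of X genes with an RNA Pol II peak, against 4.18% of such autosomal genes, and 6.61% against 2.44% of genes without one.

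Fewer of the distal HP1 peaks on X than on the autosomal arms touched RNA Pol II. The share was 29.6% on X, below the 36.9 to 39.7% on the autosomal arms. On X, 50 of the 213 peaks (23.5%) touched a Kismet peak, within the autosomal range of 19.0 to 28.8%, and 16.9% touched a Trr peak, within 16.4 to 21.4%. No peak of any other protein was touched by 58.2% of distal HP1 peaks on X, above the 49.3 to 57.1% on the autosomal arms. Gene bodies held 84.3% of the base pairs of the X peaks, against 85.9% on 2L, 47.1% on 3L and 72.5% on 3R, where gene bodies made up 80.4% of the distal X and 71.6% of the distal autosomal arms. X genes held there had a median length of 7173.5 bp, against 2140 bp for all distal X genes.

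Named genes illustrate this distal HP1. para, which encodes the voltage-gated sodium channel of neurons (FBgn0285944, X from 16455027 to 16533096), had 10609 bp in 6 HP1 peaks and no peak of Kismet, Trr, RNA Pol II or Pc. mamo, a zinc-finger transcription factor gene (FBgn0267033, X from 13846116 to 13990527), had 6095 bp in 8 HP1 peaks, together with 38566 bp of Kismet and 20048 bp of RNA Pol II. The next genes by HP1 base pairs were chosen after their values were seen. wupA and up, which encode the troponins I and T of muscle, had 5620 and 3083 bp in HP1 peaks and none in Kismet, Trr, RNA Pol II or Pc peaks. rdgA, a diacylglycerol kinase gene known from photoreceptors, had 4852 bp in 6 HP1 peaks, and inaE, a diacylglycerol lipase gene, had 4400 bp in 4. Of the 12 distal X genes with the most HP1 base pairs, 9 were longer than 10 kb, beside 43.1% of all HP1-held distal X genes, and 4 had no RNA Pol II peak, where 67.2% of the HP1-held and 48.0% of all distal X genes had one. A ranking by base pairs favors long genes, so the number of long genes among these 12 is not a result about HP1.

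The Brm and H1 lists, which had their 3 Dam-only samples in common with HP1, also stood higher on X in some measures, with smaller ratios. Outside the 5 Mb nearest the centromere, X stood at 1.16-fold the autosomal value for Brm in peaks per Mb, 1.25-fold in coverage and 1.44-fold in genes held, above all 3 arms in each. For H1, of which X had 17 peaks there, X stood at 1.05-fold in peaks per Mb and 1.03-fold in coverage, within the range of the arms, and at 1.71-fold in genes held (0.813% against 0.176 to 0.711%), above it. Pc, with 1 of these 3 Dam-only samples, stood at 1.00-fold in peaks per Mb, 0.928-fold in coverage and 1.03-fold in genes held. X lay within the range of the arms in each of these Pc measures. Of the lists with no Dam-only samples in common with HP1, Trr stood at 1.24-fold in peaks per Mb, 1.20-fold in coverage and 1.33-fold in genes held. In the same order, RNA Pol II stood at 1.11-fold, 1.06-fold and 1.19-fold, and Kismet at 1.00-fold, 0.990-fold and 1.11-fold. The part of the shared Dam-only samples in the X values was not tested. The HP1 list also held 4 rows on the Y chromosome, covering 732110 bp, whereas Kismet and RNA Pol II had 1 row each there and the other lists had none. Whether the sex of the flies, their X copy number or the mapping of repeats has a part in the X values was not tested.

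Next to the centromere the order was turned round for HP1 density, peak length and coverage, but not for genes held. HP1 held 11.4% of 492 X genes there, against 6.91% of 695 on 2L, 81.5% of 65 on 3L and 20.6% of 141 on 3R. In the 5 Mb nearest the centromere, HP1 peaks covered 18.0% of X, against 19.4% of 2L, 79.2% of 3L and 59.5% of 3R. X had 13.4 HP1 peaks per Mb there, against 33.2 on 2L, 75.6 on 3L and 63.4 on 3R, with a median length of 606 bp against 1407.5 to 4199.5 bp. On whole arms these opposite differences offset each other. X had 11.9 HP1 peaks per Mb, within the autosomal range of 10.6 to 17.1, and HP1 covered 4.58% of X, within 4.35 to 14.5%. The share of genes held was nevertheless higher on the whole X, at 8.50% (7.51 to 9.61%) against 2.30 to 3.65% of autosomal genes.

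HP1 density on X hardly varied with the length left out at the centromere. X had 11.5 peaks per Mb without the nearest 2 Mb, 11.6 without 4 Mb and 10.9 without 8 Mb. The pooled autosomal arms had 9.85, 5.91 and 3.42. The ratio of X to the autosomal arms was accordingly 1.16 at 2 Mb, 1.96 at 4 Mb and 3.20 at 8 Mb. HP1 coverage of X stood below that of the pooled autosomal arms until 5 Mb were left out. The ratio was 0.169 at 2 Mb, 0.660 at 4 Mb, 3.10 at 5 Mb and 3.58 at 8 Mb. Single arms differed, since on whole arms X, at 4.58%, already lay above 2L, at 4.35%. The length left out thus changed the sign of the comparison with the pooled arms for coverage.

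**Figure D3:**
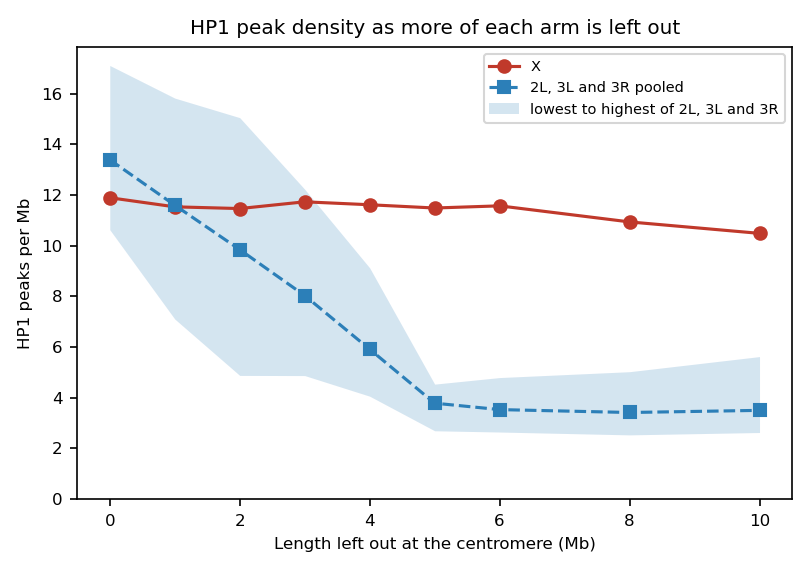
HP1 peaks per Mb against the length left out at the centromere (Mb), for X (circles), for 2L, 3L and 3R pooled (squares) and for the range of these 3 arms (shaded). X stays between 10.5 and 11.9 peaks per Mb, whereas the pooled autosomal density goes down to 3.79 at 5 Mb and little further.

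The X heterochromatin itself was concentrated in a few long blocks. The 3 longest X peaks of HP1 measured 189082 bp (X from 21927716 to 22116797), 143484 bp (22256549 to 22400032) and 122717 bp (21797232 to 21919948), and no annotated gene lay in them. Together they made up 42.2% of the HP1 base pairs of X. Long peaks were as prominent elsewhere, since peaks of 10 kb or more held 77.3% of HP1 base pairs on X, within 68.5 to 78.9% on the autosomal arms. The 1 Mb X window with the highest HP1 coverage, from 22 to 23 Mb, had 41.4% of its length in peaks. The X gene with the most HP1 base pairs was lncRNA:flam (X from 21631891 to 21790731), the flamenco piRNA cluster, which restrains transposons in the somatic cells of the ovary. It had 56267 bp in 5 HP1 peaks, or 35.4% of its length. Reads from repeats such as those in flamenco can map to several places, so these long blocks are less certain than peaks in unique sequence.

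Trr stood above the autosomal arms on X by a smaller margin. X had 43.0 Trr peaks per Mb (40.4 to 45.7), against 33.9 on 2L, 34.6 on 3L and 33.3 on 3R, a ratio of 1.27 where the highest autosomal arm was 1.04-fold above the lowest. For genes held the ratio was also 1.27, with the highest autosomal arm 1.19-fold above the lowest. Trr peaks covered 4.82% of X against 3.84 to 3.96% of the autosomal arms. They held 24.5% of X genes (22.9 to 26.2%), against 17.8 to 21.1% of autosomal genes, beside 20.5% of all 17684 genes. Peak length differed less, with a median of 644.5 bp on X within the autosomal range of 613 to 698 bp, so that X carried more Trr peaks but not longer ones. Outside the 5 Mb nearest the centromere X remained above all 3 arms for peaks per Mb (48.3 against 35.8 to 42.1), genes held (26.3% against 18.5 to 21.5%) and coverage (5.39% against 4.22 to 4.68%). The density ratio was 1.24 there, with the highest autosomal arm 1.17-fold above the lowest.

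Genes over 10 kb made up 14.6% of X genes and 10.8% of autosomal genes. Within length classes, Trr held 53.4% of X genes over 10 kb against 43.2 to 50.1% on the autosomal arms, 30.4% of those of 2 to 10 kb against 24.9 to 29.3%, and 11.5% of those under 2 kb against 8.32 to 11.1%. X lay above the range in each class, though by a narrow margin in the last of these. Among genes with an RNA Pol II peak, 50.1% of X genes also held Trr, against 44.9% of autosomal ones. The single arms had 42.6 to 48.7%, so X lay above the highest by a narrow margin. Among genes without RNA Pol II the shares were 2.48% and 2.62%, within the range of the arms. These shares were not divided by gene length.

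**Figure D4:**
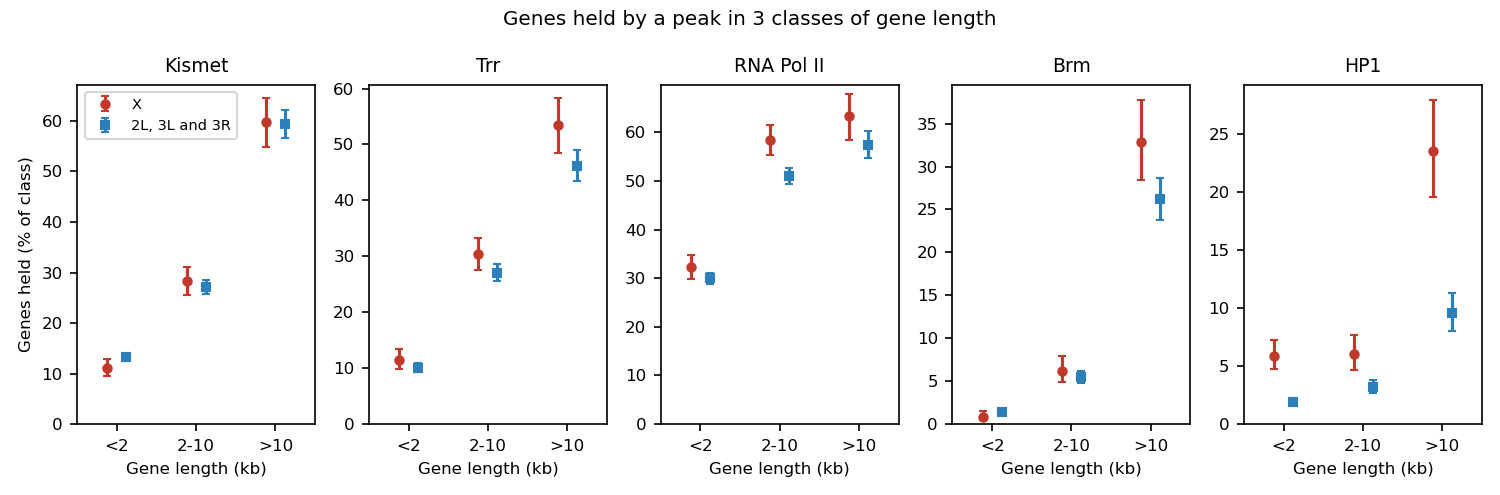
Share of genes held by a peak (% of the genes in a class) in 3 classes of gene length, for X (circles) and for 2L, 3L and 3R pooled (squares), with 95% Wilson intervals that cover counting error over genes only. X lies above the autosomal arms in all 3 classes for HP1 (23.5 against 9.55% over 10 kb) and Trr, and lies at or below them for Kismet genes under 2 kb (11.2 against 13.3%).

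RNA Pol II and Brm followed the same direction as Trr. On whole arms X had 55.9 RNA Pol II peaks per Mb (52.9 to 59.0) against 48.5 to 50.7 on the autosomal arms, and RNA Pol II covered 10.8% of X against 9.60 to 9.66%. Without the 5 Mb nearest the centromere the density was 61.7 against 52.7 to 58.7, and coverage was 11.7% against 10.3 to 11.6%. The ratios there, 1.11 and 1.06, did not exceed the spread of the autosomal arms, whose highest was 1.11-fold and 1.13-fold above the lowest. For genes held the ratio was 1.19, with a spread of 1.10-fold. On whole arms RNA Pol II held 46.3% of X genes (44.4 to 48.2%) against 36.5 to 41.7%, beside 41.5% of all genes. These peaks were shorter on X, with a median of 1169 bp against 1232.5 to 1282 bp. Relative to gene number the gap was wider, at 48.6 RNA Pol II peaks per 100 genes on X and 36.7 on the autosomal arms. The X excess in genes held was clearest in genes of 2 to 10 kb, of which 58.4% were held on X and 50.5 to 51.7% on the autosomal arms. In genes under 2 kb the 32.3% on X lay within the autosomal range of 26.3 to 33.6%.

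Brm had 13.5 peaks per Mb on X (12.1 to 15.1) against 11.1 to 11.4 on the autosomal arms. It held 7.47% of X genes (6.54 to 8.52%) against 5.25 to 5.56%, beside 5.95% of all genes, and covered 0.479% of X against 0.350 to 0.399%. The excess lay in long genes, where Brm held 32.9% of X genes over 10 kb against 25.4 to 26.9%. In genes under 2 kb the order was the opposite, with 0.829% on X, or 11 genes, against 1.18 to 1.79%. Brm peaks were short on all arms, with medians of 256 bp on X and 250.5 to 261 bp on the autosomal arms.

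For Kismet, X lay within the autosomal range in all 4 measures on whole arms. X had 35.0 Kismet peaks per Mb (32.7 to 37.5), within 32.1 to 35.0 on the autosomal arms. Kismet covered 12.5% of X, within 11.5 to 12.9%, with a median peak of 1812 bp within 1700 to 1870 bp. It held 24.5% of X genes, within 20.6 to 25.2% of autosomal genes, beside 23.5% of all genes. Relative to gene number X lay above all 3 arms, with 30.5 Kismet peaks per 100 genes against 23.5 on 2L, 28.0 on 3L and 24.3 on 3R. Without the 5 Mb nearest the centromere its share of genes held on X was 25.7%, level with the 25.7% of the highest autosomal arm. Trr thus had more peaks on X than Kismet did, at 1012 against 824, whereas on the autosomal arms the numbers were close, at 2837 against 2829.

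More of Kismet lay in gene bodies on X, where gene bodies also made up more of the arm. On X 90.3% of Kismet base pairs were in gene bodies, against 81.5% on 2L, 78.7% on 3L and 83.7% on 3R. Gene bodies made up 74.6% of X, 67.7% of 2L, 64.6% of 3L and 72.8% of 3R. The part of this background in the Kismet shares was not tested. More of Kismet also lay in peaks of Trr, with 33.3% of its base pairs on X against 26.0 to 30.2%. The share in RNA Pol II peaks was 56.8% against 51.9 to 55.4%, where Kismet and RNA Pol II had their Dam-only samples in common. Both partner lists also covered more of X, Trr 4.82% against 3.84 to 3.96% and RNA Pol II 10.8% against 9.60 to 9.66%. The part of this coverage in the overlaps was not tested. Conversely 86.1% of Trr base pairs on X lay in Kismet peaks, slightly below the 87.0 to 87.9% on the autosomal arms. HP1 peaks took in 0.868% of Kismet base pairs on X and 0.220 to 0.288% on the autosomal arms. Among genes without RNA Pol II, Kismet held 5.30% on X, below the 6.28 to 8.57% on the autosomal arms.

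In the combination of proteins on single genes, X had more genes with Kismet, Trr and RNA Pol II together, at 17.4% against 12.4 to 15.4% of autosomal genes. Singly, Trr held 24.5% of X genes against 17.8 to 21.1%, and RNA Pol II 46.3% against 36.5 to 41.7%. The part of these single shares in the combination was not tested. All 3 with Brm were found on 6.40% of X genes and 4.40% of autosomal genes. Genes without a peak of any of the 7 proteins made up 44.5% of X genes, below the 48.4 to 53.2% of the autosomal arms. The same direction held for long noncoding RNA genes, of which 24.5% held RNA Pol II on X against 13.7 to 16.7%, and 16.2% held Trr against 7.79 to 12.3%. Many such genes overlap other genes, and the lists carry no strand, so a peak cannot be assigned to one of them. None of these shares was divided by gene length, and X genes were longer, so the part of length in them was not tested.

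On whole arms, X lay within the autosomal range in peak density and genes held for Pc and H1. X had 16.1 Pc peaks per Mb, within 12.9 to 20.5, and Pc held 5.21% of X genes, within 4.16 to 6.10%, beside 5.21% of all genes. Pc covered 3.53% of X, within 3.10 to 4.80%, and its median peak of 949.5 bp was barely above the 921 to 949 bp of the autosomal arms. H1 had 18 peaks on X, or 0.765 per Mb (0.453 to 1.21), within 0.676 to 1.45, and held 19 X genes, or 0.702% beside 0.532% of all genes. H1 coverage of X, 0.0217%, and its median peak of 260.5 bp lay below the autosomal ranges of 0.0239 to 0.0464% and 275.5 to 284.5 bp. With 18 peaks on X the counting interval of H1 density was wide, and no test of a difference was run.

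Ranked by base pairs of Kismet, the leading X genes were lncRNA:CR44999 with 65791 bp, CG12535 with 53628 bp (87.9% of its length) and lncRNA:CR44357 with 49404 bp. lncRNA:CR44999 and CG12535 overlap each other and Myc, the growth regulator, in the X window from 3 to 4 Mb, where Kismet coverage was highest at 26.8%. The longest Kismet peak on X, of 35323 bp, lay in Tlk, the Tousled-like kinase gene (X from 3720007 to 3789770), which also had 35331 bp of RNA Pol II. For RNA Pol II, Tlk was exceeded by lncRNA:CR44999 with 37406 bp and was followed by mew, an integrin alpha subunit gene, with 28448 bp in 10 peaks. RNA Pol II coverage was highest from 13 to 14 Mb, at 17.8%, the window that also had the highest Brm coverage, 0.872%. The longest RNA Pol II peak on X, of 19958 bp, covered 7 genes from GCS2alpha to CG32500, several of which are near-identical copies, so it is uncertain.

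Trr was longest over Atf3, a stress-responsive transcription factor gene, with a peak of 10140 bp. Its highest window was from 1 to 2 Mb, at 8.96%. The genes with most Trr were lncRNA:CR44357 with 23449 bp in 16 peaks, Raf with 20900 bp in 6 and CG1677 with 18639 bp in 14. Raf encodes the kinase that carries EGF receptor signaling from Ras to MEK, and a Kismet peak of 32374 bp also lay over Raf and CG2865. For Brm the genes were lncRNA:CR44357 with 4955 bp, Smr with 4838 bp and CG1677 with 4699 bp, and its longest X peak, of 4294 bp, lay in Smr, the SMRTER corepressor gene. H1 had its longest X peak, of 787 bp, in na, a sodium leak channel gene. The next X genes by H1 base pairs were Ten-a and lncRNA:CR43960, which overlap and share the same 553 bp in 2 peaks. Its highest X window, from 17 to 18 Mb, was at 0.107%.

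Pc lay over developmental regulators on X. The genes with most Pc were lncRNA:CR32773 with 81344 bp in 26 peaks, the overlapping bi (optomotor-blind, a T-box factor) with 54866 bp and ct (the homeodomain factor Cut) with 47902 bp. The longest Pc peak, of 33657 bp, lay over lncRNA:CR32773 and bi. The highest Pc window, from 8 to 9 Mb, was at 13.1% and contains oc and Lim1, both homeodomain genes. Of 19 patterning and cell fate transcription factors looked up on X, 10 held Pc, against 5.21% of all X genes. Their median length was 6652 bp, and Pc held 3.87% of X genes of 2 to 10 kb and 18.0% of those over 10 kb. These 19 genes were chosen with earlier results of these data known. Pc took up 88.7% of oc (18208 of 20523 bp), 83.3% of lz, the Runx factor Lozenge, and all 3373 bp of btd, a zinc-finger gene of head development. RNA Pol II lay on 4 of the 19, of which sc, a proneural gene, and vnd had 1438 and 7592 bp. br, the ecdysone-responsive Broad factor, held no Pc but 28992 bp of Kismet and 15922 bp of RNA Pol II.

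**Figure D5:**
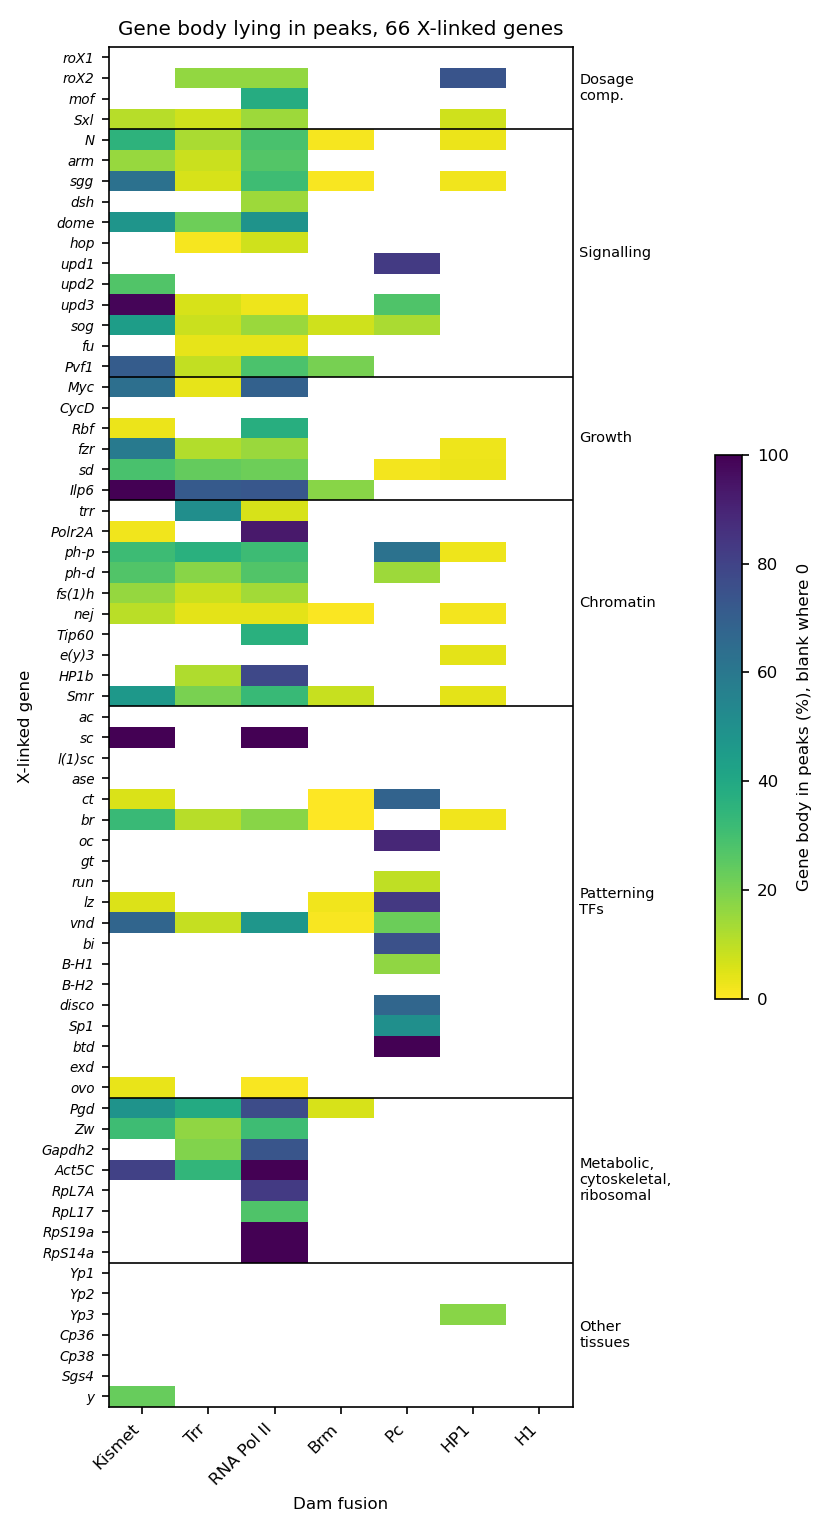
Share of the gene body lying in peaks (%, color scale from 0 to 100, blank where no base pair lay in a peak) for 66 X-linked genes (rows, in 7 lists parted by black lines) and 7 Dam fusions (columns). Housekeeping genes carry RNA Pol II in 8 of 8 cases, the patterning factors carry Pc in 10 of 19, and genes of other tissues are mostly blank.

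Of the 66 X-linked genes looked up, 39 held RNA Pol II, 30 Kismet, 28 Trr, 16 Pc, 12 Brm, 12 HP1 and none H1. Over all X genes the shares were 46.3% for RNA Pol II, 24.5% for Kismet and for Trr, 5.21% for Pc, 7.47% for Brm, 8.50% for HP1 and 0.702% for H1. These genes were picked for their known roles, with a median length that differs from list to list, and are a description of X rather than a sample of it. All 8 metabolic, cytoskeletal and ribosomal genes held RNA Pol II, with a median length of 2577 bp, and Act5C, the cytoplasmic actin gene, lay in 1 RNA Pol II peak over all its 4539 bp. Of these 8 genes, 3 held Kismet and 4 held Trr, and the 4 ribosomal protein genes (RpL7A, RpL17, RpS19a and RpS14a) held neither. In contrast, none of the 7 genes for products of other tissues, such as the yolk protein genes Yp1, Yp2 and Yp3, held RNA Pol II. Their median length was 1686 bp, and 32.3% of X genes under 2 kb held it. Yp3 had 355 bp in an HP1 peak, and y, the cuticle pigment gene, had 1095 bp in a Kismet peak.

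Among 12 signaling genes, 10 held RNA Pol II, 9 Trr and 8 Kismet, beside 46.3%, 24.5% and 24.5% of all X genes. The median length of these 12 was 7411 bp, against 2063 bp for all X genes, and 58.4% of X genes of 2 to 10 kb held RNA Pol II. N, which encodes the Notch receptor (FBgn0004647, X from 3134870 to 3172221), had 13211 bp in Kismet, 10654 bp in RNA Pol II and 4784 bp in Trr peaks. sgg, the GSK3 kinase gene of the Wnt pathway, had 28539 of 45602 bp in Kismet peaks. The 3 JAK-STAT ligand genes differed. upd3, the ligand released by stressed enterocytes, had 7250 of its 7364 bp in Kismet, 2021 bp in Pc and 200 bp in RNA Pol II peaks. upd1 had 3271 of 3938 bp in Pc peaks and none in any other list, and upd2 had 711 bp in a Kismet peak alone. The receptor gene dome held 3636 bp of RNA Pol II and 3560 bp of Kismet, and the kinase gene hop held 528 bp of RNA Pol II. Pvf1, a PDGF- and VEGF-like ligand gene, had 7251 bp in a Kismet peak and 2114 bp in 3 Brm peaks.

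Of 6 growth and cell cycle genes, with a median length of 8319 bp, 5 held RNA Pol II and 5 Kismet, beside 46.3% and 24.5% of all X genes and 58.4% and 28.3% of those of 2 to 10 kb. RNA Pol II peaks took up 12782 and Kismet peaks 11772 of the 18539 bp of Myc, and Ilp6, an insulin-like peptide gene, lay whole, with 3166 bp, in a Kismet peak. CycD, the cyclin D gene, was in no list. Of 10 chromatin genes, with a median length of 10230 bp, 9 held RNA Pol II, beside 46.3% of all X genes and 63.3% of those over 10 kb. ph-p, which encodes a PRC1 subunit, had 7559 of 12162 bp in Pc and 3823 bp in RNA Pol II peaks, and the adjacent copy ph-d had 1099 bp of Pc and 2038 bp of RNA Pol II. These are near-identical genes, so reads may be split between them. trr itself had 4379 of 8638 bp in Trr peaks but only 513 bp in RNA Pol II peaks and none in Kismet peaks. The Dam-Trr transgene carries trr sequence, and its part in this signal was not tested. Polr2A, the gene of the largest RNA Pol II subunit, had 7008 of 7527 bp in RNA Pol II peaks. The sources used here do not say which subunit the fusion carries.

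The dosage compensation genes gave a mixed picture. roX1, one of the 2 noncoding RNAs of the MSL complex, had no base pair in any list. roX2 (FBgn0019660, X from 11579065 to 11580432) had 1010 of its 1368 bp in an HP1 peak and 222 bp in a Trr and an RNA Pol II peak. mof had 1153 bp in 2 RNA Pol II peaks and no peak of another protein. Sxl, the switch gene of sex determination, had 3464 bp in RNA Pol II, 2487 bp in Kismet and 1706 bp in Trr peaks, and 1704 bp in 3 HP1 peaks. The autosomal genes msl-1, msl-2 and msl-3 each had 1 RNA Pol II peak, of 522, 624 and 889 bp within the gene, and no peak of another protein. HP1 peaks also lay in N (1062 bp), sgg (1064 bp), br (1861 bp in 3 peaks) and Smr (2470 bp), all of which held Kismet, Trr and RNA Pol II.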

How the data were processed

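Targeted DamID-seq peak lists were analyzed; the RNA-seq samples were not used here. The authors used Bowtie2 and release 6 of the genome, obtained coverage of each GATC site with bedtools after extending the reads, dropped sparsely covered sites, compared each fusion with Dam alone in DESeq2, and joined adjacent sites that passed into peaks. The deposited lists give arm, start and end as other, unscored positions, without counts, heights or p-values, so the depth is unknown and arms that differ in GATC or mappable sites are not corrected for. Starts were read as 0-based. Genes came from the RefSeq table of the same release. The arm 2R was not compared.

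For each list and arm, peaks per Mb, median length, the share of genes with at least 1 bp in a peak and the merged coverage were computed, with exact Poisson and Wilson 95% intervals (Python 3.11, NumPy, pandas, SciPy). Peaks and genes were assigned to the 5 Mb nearest the centromere by midpoint, and coverage was clipped there. Interval functions were tested on simulated data. No test was run. Named genes were those of 7 lists, and for each protein the 3 X genes with most base pairs in peaks, the longest X peak and the highest 1 Mb window. Alternatives left out 5 Mb or 1 autosomal arm, kept peaks of 500 bp or more, joined rows within 1 kb, or changed the gene rule. The members and lists were chosen with earlier results of these data known. Samples were grouped by title, since some Dam-HP1 and Dam-H1 genotype labels carry other numbers.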

Additional observations from a re-analysis of the deposited data

Results flagged for a closer look

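Rows on the Y chromosome, which the comparison of X with the autosomal arms did not use, were present in 3 of the 7 lists. The HP1 list had 4 rows there, covering 732110 bp or 20.0% of the annotated length of Y. The Kismet list had 1 row and the RNA Pol II list had 1 row, both of 47 bp from 3302751 to 3302797, and these 2 fusions had their Dam-only samples in common. A row stands for sites methylated more by the fusion than by Dam alone, and no value per sample is given.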

How the results depend on the processing

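Ratios of X to the pooled autosomal arms were recomputed under 223 alternatives, of which 162 stayed within 1 SD of the spread between the autosomal arms, 53 went beyond it and 8 changed the side of a departure of X. Those for HP1 without 5 Mb were chosen after seeing the data. Where nothing else is said, the cause was not tested. Leaving out the 5 Mb nearest the centromere turned HP1 peak length to 1.17 (0.349 on whole arms) and H1 coverage to 1.03 (0.718), and moved HP1 peaks per Mb to 3.04 (0.888), HP1 genes held to 3.67 (2.72), HP1 coverage to 3.10 (0.472), Trr peaks per Mb to 1.24, Trr coverage to 1.20, RNA Pol II peaks per Mb to 1.11, RNA Pol II coverage to 1.06, Brm peaks per Mb to 1.16, Brm genes held to 1.44, Pc peak length to 1.08 and H1 peak length to 0.951. Keeping peaks of 500 bp or more turned Pc peak length to 0.893 (1.02) and gave 1.25 for Trr peaks per Mb, 0.983 for RNA Pol II peak length, 1.11 for RNA Pol II coverage, 1.28, 1.04 and 1.38 for Brm peaks per Mb, length and coverage, and 1.42, 0.553 and 2.49 for H1 peaks per Mb, length and genes held. Joining rows within 1 kb turned RNA Pol II peak length to 1.07 (0.929) and Pc peak length to 0.946, and gave 1.22 for Trr peaks per Mb, 1.13 for Trr length, 1.11 for RNA Pol II peaks per Mb, 1.18 for Brm peaks per Mb and 1.23 for HP1 peaks per Mb. Requiring 50% of the gene body in peaks turned the Brm share to 0.829 (1.39), and gave 0.944 for Kismet, 1.12 for Trr, 1.05 for RNA Pol II, 0.622 for Pc and 2.16 for HP1. With RNA Pol II genes only, Trr stood at 1.12, Brm at 1.24 and Pc at 1.20, extending genes by 1 kb gave 1.31 for Brm, and protein-coding genes gave 1.35 for Brm. In gene bodies only, Trr coverage was 1.18 and RNA Pol II coverage 1.06. Without 3R, HP1 genes held on whole arms stood at 2.34. Counted by touching peaks, Kismet in HP1 was 3.07 (3.57 by base pairs).

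For HP1 without 5 Mb, leaving out an autosomal arm gave 2.56 (3R) and 3.34 (3L) for peaks per Mb, 3.20 (3R) and 4.15 (2L) for genes held, and 2.35 (3R) and 4.44 (3L) for coverage. Peaks of 500 bp or more gave 3.68 for peaks per Mb and 4.70 for genes held. A minimum of 50% of the gene body gave 5.96, genes extended by 1 kb 3.37, protein-coding genes 3.24 and RNA Pol II genes 3.11. A margin of 2 Mb gave 1.16 for peaks per Mb and 2.75 for genes held, and turned peak length to 0.486 and coverage to 0.169. No paired analysis was possible because each list was called once from all samples, and no sample could be left out. Arms differ in GATC sites and mappability by an amount not measured here.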
